A study of Mus musculus with 19 samples.

Results

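The comparison described here sets the livers of 5 mice given 25 mg/kg/day of dibenz[a,h]anthracene against those of 5 mice given the vehicle, across the mouse microRNAs (miRNAs) of an Agilent array. These 10 arrays, 1 per mouse, were chosen by the dose in their titles from 19 in the series, and the other 9 arrays held lower doses. All animals were males of the MutaMouse strain (transgenic mouse strain 40.6), which carries a bacterial reporter transgene for scoring mutations, and were 10 weeks old. The high dose group received dibenz[a,h]anthracene in olive oil by daily oral gavage for 28 days, and the controls received olive oil alone on the same schedule. In both groups a part of the liver was removed once 3 days had passed from the final gavage, and 100 ng of its total RNA was labelled with Cyanine 3-pCp. The question, as the series title puts it, is whether the liver answers this exposure at the level of miRNA.

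A miRNA is a short RNA that guides a repressor complex to messenger RNAs, and its seed, the stretch near its 5′ end, sets most of the pairing. Each hairpin precursor can give a guide strand and a passenger strand, and the array names the less abundant strand with an asterisk. Dibenz[a,h]anthracene is a polycyclic aromatic hydrocarbon that binds the aryl hydrocarbon receptor and is metabolized in liver to products that damage DNA. DNA damage activates the transcription factor p53, of which the gene for miR-34a is a direct target.

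The sequences below belong to miRNAs described in the results, written 5′ to 3′ with the seed (bases 2 to 8) in capitals. They come from the RefSeq annotation of GRCm38.p6, which held a mature sequence for 159 of the 208 miRNAs tested. The first 4 belong to miRNAs that passed the test, miR-23b being the fifth. The others did not pass and are members of shared-seed groups described below, whose members were not tested against one another.
miR-34a: uGGCAGUGucuuagcugguugu
miR-139-5p: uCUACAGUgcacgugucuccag
miR-223: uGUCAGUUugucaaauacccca
miR-1895: cCCCCGAGgaggacgaggagga
miR-15a: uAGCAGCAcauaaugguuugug
miR-15b: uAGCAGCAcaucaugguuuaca
miR-30a: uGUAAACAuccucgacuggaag
miR-30e: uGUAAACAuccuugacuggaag
let-7a: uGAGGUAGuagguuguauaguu
miR-98: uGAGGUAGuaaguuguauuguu

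Mature miR-34a lies at chr4:150068473-150068494 on the plus strand, and no other gene of the RefSeq table spans it. Mature miR-139-5p lies at chr7:101475382-101475403 on the plus strand, within the span of Pde2a, a phosphodiesterase gene. The position of miR-223 is chrX:96242884-96242905 on the plus strand, within the span of F630028O10Rik. For miR-1895 it is chr3:134240515-134240536 on the minus strand, within the span of Cxxc4. The remaining sequences lie within the spans of Dleu2 for miR-15a (chr14:61632075-61632096), Smc4 for miR-15b (chr3:69009775-69009796), Nfyc for miR-30e (chr4:120772660-120772681) and Huwe1 for miR-98 (chrX:151913229-151913250).

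Array signal was compared first, since it differed between the groups. Controls detected 200.6 ± 11.1 miRNAs per array (SD, n = 5) and high dose arrays 169.8 ± 12.7 (SD, n = 5), with an exact permutation p of 0.0159 and an adjusted p of 0.0212 over 4 array measures. The signal of RNA spiked in before labelling averaged 12.36 (log2; SD 0.24, n = 5) for control arrays and 11.52 (SD 0.17, n = 5) for high dose arrays, with no overlap (exact permutation p = 0.00794, adjusted p = 0.0212). The signal spiked in at hybridization was 14.79 ± 0.31 and 14.54 ± 0.40 (SD, n = 5 each; exact permutation p = 0.349). Within slides, the exact tests, two-sided over 36 arrangements, gave adjusted p-values of 0.0741 for the number detected and for the labelling spike-in. Before adjustment the exact permutation p of the labelling spike-in was 0.0278, the smallest the 36 arrangements allow. All 5 high dose arrays lay in row 2 of their slides, while 4 of 5 controls lay in row 1, so row and dose can hardly be told apart. The exception was control replicate 22, which shared slide and row with high dose replicate 23 and is called its same-row control below. The liver label was checked against miR-122, the main hepatocyte miRNA, which was above background on all 10 arrays. None of 4 pancreas or 2 neuron markers was detected on any array.

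Levels are given on a log2 scale on which 0 is the array's own 75th percentile, taken over the 220 probes detected on all 19 arrays, with a floor at -4.79. The array carries 696 miRNAs, and 208 of them, those detected on 4 or more of 19 arrays, were tested with limma, with the slide as a block and the other doses in the fit. At the high dose 5 of 208 were higher (2.4%) and 0 were lower (0%) at a Benjamini-Hochberg adjusted p under 0.05. At an unadjusted p under 0.05, limma gave 41 higher (19.7%) and 12 lower (5.77%). Other scalings gave between 1 and 23 higher and between 0 and 69 lower, and miR-34a was called higher under each of them. The median difference over all 208 was 0.05 (log2). In all, 158 of 208 differed by at most 0.25 in size. The 95% interval lay within a 1.5-fold change in either direction for 158. Of the 208, 27 were at the floor on all 10 arrays, and the floor itself puts their difference at or near 0. For those 27, these counts and the median do not show an unchanged level. Over the 127 miRNAs never at the floor the median difference was 0.10.

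**Figure D1:**
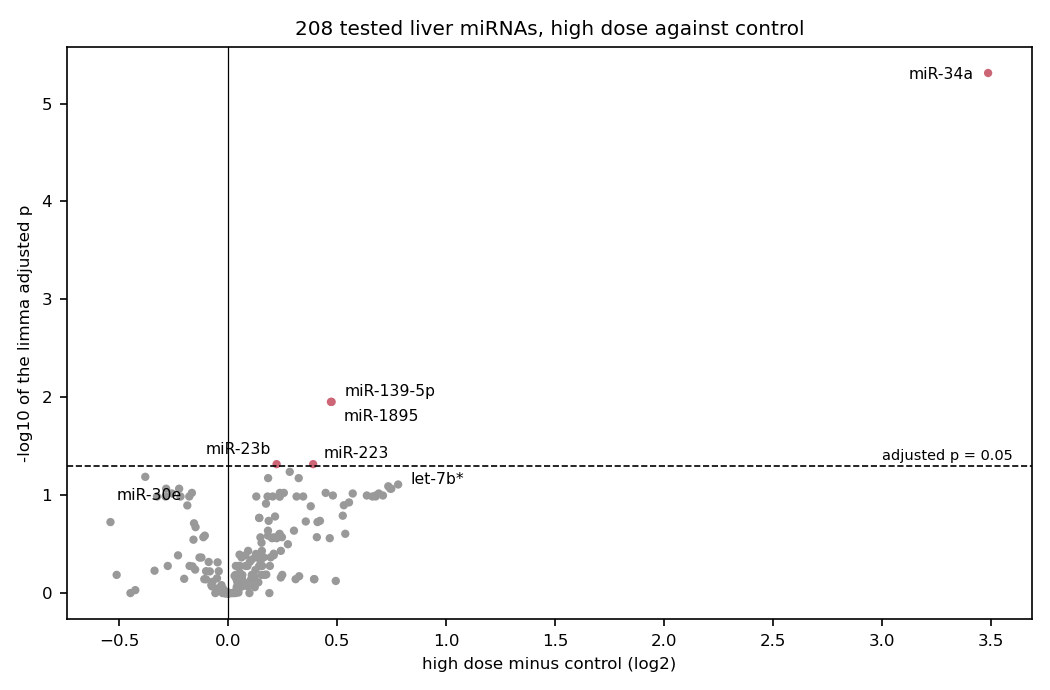
Each of the 208 tested miRNAs is a point, with the fitted difference of high dose minus control (log2) on the x axis and -log10 of the limma adjusted p on the y axis; the dashed line marks an adjusted p of 0.05 and red points lie above it. The point of miR-34a stands at 3.49, while miR-139-5p and miR-1895 share one place near 0.47 and every other difference lies between -0.54 and 0.78.

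The p53 target miR-34a rose most. Its level was -3.75, -4.31, -3.97, -4.21 and -3.96 in control replicates 1, 10, 17, 19 and 22. At the high dose it was 0.28, 0.06, -1.08, -0.27 and -0.55 in replicates 7, 8, 15, 16 and 23. All 5 high dose livers stood above all 5 controls, and the gap between the groups was wider than the range of either. Control livers averaged -4.04 (SD 0.22, n = 5) and high dose livers -0.31 (SD 0.53, n = 5). The fitted difference was 3.49 (log2, SE 0.30), an 11.2-fold change (95% interval 7.12 to 17.6), with a limma adjusted p of 4.88e-06. An exact permutation test on the arrays alone, two-sided, gave a difference of means of 3.73 with p = 0.00794, the smallest the 252 arrangements allow. Differences within slides were 3.92, 3.63 and 3.49 on slides 1, 2 and 3. Against its same-row control, high dose replicate 23 was higher by 3.41. The second probe of miR-34a gave 3.38 beside 3.49 for the probe used.

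The other tested members of the p53 list differed far less. This list held miR-34a, its relatives miR-34b and miR-34c, and further miRNAs reported as p53-regulated, namely miR-192, miR-194, miR-215, miR-107, miR-143, miR-145, miR-15a and miR-16. Of 13 mature forms 7 were tested, with a median difference of -0.05 beside 0.05 over all tested miRNAs. Of these 7, 1 was called higher and 0 lower, beside 2.4% and 0% of all 208. The other 6 of the 13 forms were detected on no array, among them every form of miR-34b and miR-34c, the relatives of miR-34a. The difference for miR-192, an abundant liver miRNA, was 0.05 (adjusted p = 0.795). For miR-194, which has 2 loci, it was -0.08 (adjusted p = 0.601).

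The second miRNA to rise was miR-139-5p, often described as a suppressor of tumour cell growth. Controls stood at -2.37, -2.40, -2.60, -2.44 and -2.53 in the order above. High dose livers stood at -2.03, -2.08, -1.73, -1.96 and -1.99. The groups did not overlap, and the lowest high dose value was above the highest control. The fitted difference was 0.47 (log2, SE 0.09), a 1.39-fold change (1.21 to 1.59), with a limma adjusted p of 0.0111. Slides 1, 2 and 3 gave 0.31, 0.56 and 0.53, and the same-row pair 0.53. A second probe above background on all arrays gave 0.47 as well. The call was kept on leaving out 18 of 19 arrays in turn, and was lost without high dose replicate 23, where the adjusted p was 0.0682. It was also lost with the percentile of all probes, at 0.21 (adjusted p = 0.479), with quantile normalization, at 0.31 (adjusted p = 0.169), and in the value table, at 0.11 (adjusted p = 0.145). Further losses came with the labelling spike-in, with normexp, with array signal as a covariate and with the slide row as a block, where the differences lay between 0.40 and 0.54. Without any scaling the difference was -0.23 (adjusted p = 0.45), where the median of all miRNAs was -0.47.

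The myeloid miRNA miR-223, made mainly in neutrophils and monocytes, rose by a smaller amount. Its controls were -1.79, -2.19, -2.00, -2.12 and -2.01, and its high dose values were -1.80, -1.58, -1.60, -1.52 and -1.59. Control replicate 1 stood just above high dose replicate 7, and every other control stood below all high dose livers. The fitted difference was 0.39 (log2, SE 0.09), a 1.31-fold change (1.14 to 1.51), with a limma adjusted p of 0.0482. Slide differences were 0.11, 0.63 and 0.46. The other leukocyte markers tested did not pass, with 0.12 (adjusted p = 0.679) for miR-142-3p and -0.08 (adjusted p = 0.826) for miR-142-5p, and miR-150 and miR-155 were detected on no array. The summed level of the leukocyte list ran from -0.15 to 0.30 in controls and from 0.03 to 0.54 at the high dose. In bulk liver, more cells of a type and more of a miRNA per cell cannot be told apart. The call for miR-223 was kept on leaving out 4 of 19 arrays and missed the threshold on leaving out each of the other 15, with adjusted p-values up to 0.151. It was lost with the percentile of all probes, at 0.12 (adjusted p = 0.65), and with quantile normalization, at 0.22 (adjusted p = 0.382). Further losses came with the labelling spike-in, normexp, total gene signals, array signal as a covariate and the slide row as a block. The call was lost too with control and high dose arrays only, with a floor 4 times higher and with a trended robust prior. The value table kept the call, at 0.17 (adjusted p = 0.0412).

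Of the clusters that encode miR-23, miR-27 and miR-24, which are made together from 2 loci, miR-23b rose. The controls were 0.79, 0.57, 0.42, 0.58 and 0.53 and the high dose values 0.80, 0.84, 0.94, 0.89 and 0.75. Control replicate 1 stood above high dose replicate 23, and the other controls stood below every high dose liver. The fitted difference was 0.22 (log2, SE 0.05), a 1.17-fold change (1.08 to 1.26), with a limma adjusted p of 0.0482. The slides gave 0.03, 0.34 and 0.24. Its cluster partner miR-27b differed by 0.18 (adjusted p = 0.103), and miR-24, by 0.04 (adjusted p = 0.721). The relatives from the other locus, miR-23a and miR-27a, gave 0.15 and 0.04 (adjusted p = 0.27 and 0.933). In this list 1 of 6 tested members was called higher and 0 lower, beside 2.4% and 0% of all 208, with a median of 0.09. The call for miR-23b was kept on leaving out 5 of 19 arrays, and its sign turned to -0.04 when arrays were scaled to the percentile of all probes. The call was also lost with quantile normalization, the labelling spike-in, normexp, total gene signals, array signal as a covariate and the slide row as a block. Control and high dose arrays only, a floor 4 times higher and a trended robust prior each lost the call too. So did the mean of all probes and dropping the detection filter. The value table kept it, at 0.25 (adjusted p = 0.0412).

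The last of the 5, miR-1895, was close to the limit of the array. It was at the floor on 4 controls and at -4.78 on control replicate 10, while the high dose values were -4.25, -4.47, -4.32, -3.98 and -4.33. It was above background on 4 of 5 controls and 3 of 5 high dose arrays, so fewer high dose arrays than controls held it above background. The 75th percentile that each array was divided by was 357 ± 111 intensity units in controls and 195 ± 37.4 at the high dose (SD, n = 5 each; exact permutation p = 0.0159, adjusted p = 0.0212). The fitted difference was 0.47 (log2, SE 0.09, limma adjusted p = 0.0111) and, without scaling, -0.11 (adjusted p = 0.69). The call was kept with the labelling spike-in and in the value table (adjusted p = 0.0143 and 0.0292). It was lost with the percentile of all probes (adjusted p = 0.0863) and with quantile normalization (adjusted p = 0.0657). Further losses came with normexp, total gene signals, array signal as a covariate and the slide row as a block. Other losses followed a floor 4 times higher, the control and high dose arrays alone, and leaving out high dose replicate 23. The second probe of miR-1895 was above background on 3 arrays of 19 and gave 0.07.

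**Figure D2:**
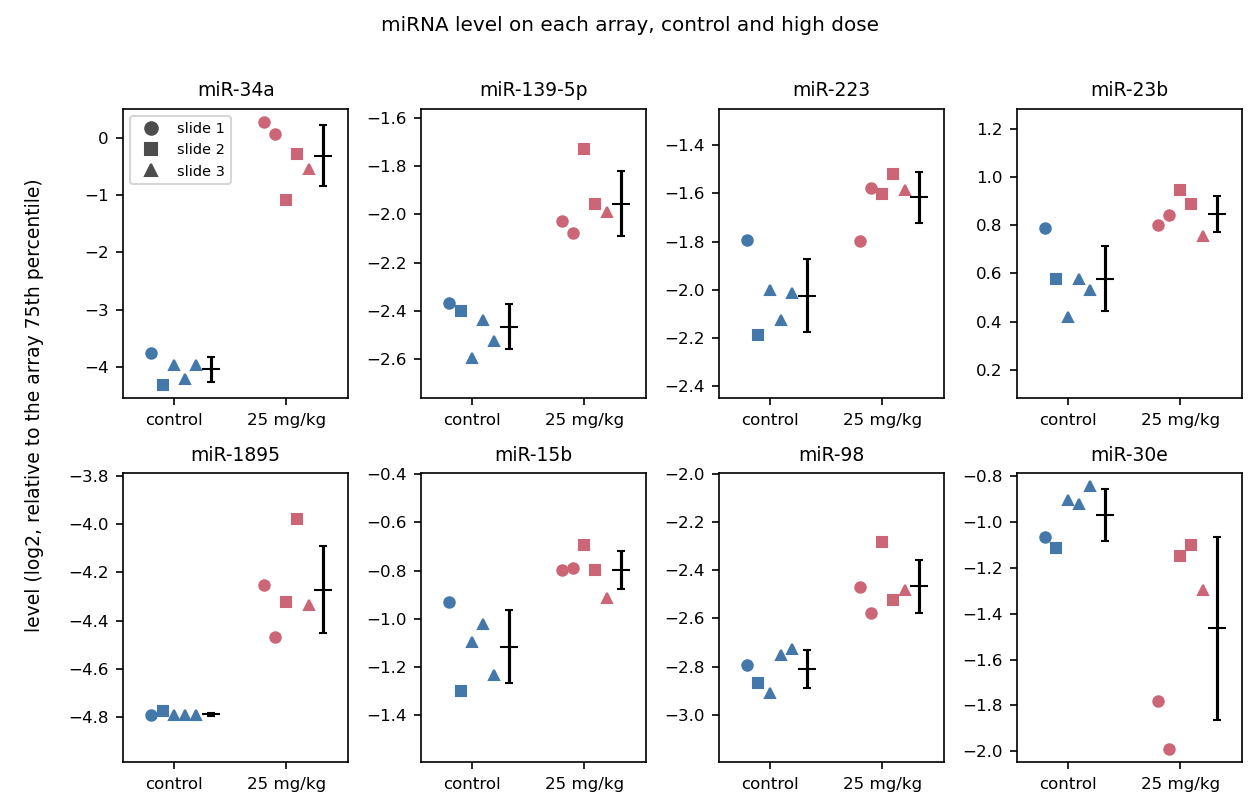
Level of 8 miRNAs on each array (log2, with 0 at the array's 75th percentile), with controls in blue and 25 mg/kg/day in red, slides by marker shape, and the mean with its SD beside each group; the y axes differ between panels and do not start at 0. The panel of miR-34a spans more than 4 log2 units with a wide gap between groups, whereas miR-223 and miR-23b overlap at control replicate 1 and miR-30e is lowest in the 2 high dose livers on slide 1.

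In 10 of 208 miRNAs (4.81%) all 5 high dose livers were above all 5 controls, and in 0 (0%) all were below. These 10 held miR-34a, miR-139-5p and miR-1895, and 7 that did not pass, of which miR-664, at the floor on all 5 controls, was one. The others were let-7a, let-7b*, miR-15b, miR-877*, miR-92a and miR-98, named here after their values were seen where the naming rule did not reach them. The nearest to the threshold was miR-15b. Its controls were -0.93, -1.30, -1.10, -1.02 and -1.23 and its high dose values -0.80, -0.79, -0.69, -0.80 and -0.91. The groups were separate by a narrow margin. The difference was 0.28 (log2, SE 0.07), with a limma adjusted p of 0.0578, and the slides gave 0.14, 0.55 and 0.20.

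The let-7 family, regulators of proliferation and metabolism, is the largest shared-seed group among the 159 tested miRNAs with a sequence. All 9 tested members carry GAGGUAG, and 7 had higher and 2 lower values at the high dose. Of the 9, 0 were called, beside 2.4% of all 208. The median was 0.18 beside 0.05 over all tested and 0.10 over the 127 miRNAs never at the floor. The largest differences were 0.34 (adjusted p = 0.103) for let-7e and 0.32 (adjusted p = 0.067) for miR-98. Levels of miR-98 were -2.79, -2.87, -2.91, -2.75 and -2.73 in controls and -2.47, -2.58, -2.28, -2.52 and -2.48 at the high dose, with no overlap. At the other end let-7g gave -0.12 (adjusted p = 0.434). Under scaling to the percentile of all probes let-7a and let-7b turned to -0.08 and -0.06.

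Members of one seed group did not share a direction in the miR-15/16 family, which restrains the cell cycle. All 6 members carry AGCAGCA, and their differences ran from -0.23 to 0.45 with 0 called, beside 2.4% of all 208. As shown above, miR-15a and miR-15b have the same seed and differ toward the 3′ end. The difference for miR-15a was -0.23 (log2, SE 0.07, limma adjusted p = 0.0859) and for miR-15b 0.28. For miR-15a the controls were 1.65, 1.31, 1.43, 1.39 and 1.41 and the high dose values 1.31, 1.23, 1.33, 1.23 and 1.14. Those ranges overlapped through control replicate 10 and high dose replicates 7 and 15. The slides gave -0.38, -0.03 and -0.27. With the percentile of all probes miR-15b gave 0.02, and without scaling miR-15a and miR-15b were both negative, at -0.93 and -0.42. Quantile normalization called miR-15a lower, at -0.23 (limma adjusted p = 0.00358). The value table called miR-15b higher, at 0.20 (limma adjusted p = 0.0412). For miR-16, the difference was -0.11 (adjusted p = 0.269), and for miR-322, 0.45 (adjusted p = 0.0948).

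Among miRNAs with lower values the smallest p belonged to miR-30e, a liver-abundant member of the miR-30 family. Its controls stood at -1.07, -1.11, -0.91, -0.92 and -0.84, and its high dose values at -1.78, -1.99, -1.15, -1.10 and -1.30. Both high dose livers of slide 1 were far below the rest, and high dose replicate 16 lay within the control range. The difference was -0.38 (log2, SE 0.10, limma adjusted p = 0.065), with -0.82, -0.01 and -0.41 on slides 1, 2 and 3. Its seed-mate miR-30a, which differs from it in the middle of the molecule, gave -0.28 (adjusted p = 0.0859) and slide values of -0.57, 0.00 and -0.29. Of the 5 family members, 3 had lower and 2 higher values, with a median of -0.16. The main fit called 0 of them, beside 2.4% of all 208. The passenger strands of the same hairpins went the other way, with 0.20 (adjusted p = 0.275) for miR-30e* and 0.15 (adjusted p = 0.469) for miR-30a*. Quantile normalization called both miR-30e and miR-30a lower, among 8 miRNAs. The value table also called miR-30e lower, at -0.29 (adjusted p = 8.82e-05), as did total gene signals, at -0.44 (adjusted p = 0.0304), and the values without scaling. It was not called with the percentile of all probes, the labelling spike-in, normexp, array signal as a covariate or the slide row as a block. The most negative difference of all 208 was that of miR-455, at -0.54 (limma adjusted p = 0.188), named after its value was seen. Quantile normalization, the value table and array signal as a covariate called miR-455 lower.

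Below the threshold, some miRNAs with small p-values had differences of either sign. The level of miR-31, an epithelial miRNA, was -3.28, -3.50, -3.08, -3.48 and -3.62 in controls and -3.76, -3.92, -3.83, -3.65 and -3.42 at the high dose. High dose livers were below every control in 4 of 5 animals. The difference was -0.33 (log2, SE 0.12, limma adjusted p = 0.103), and the slides gave -0.57, -0.24 and -0.03. The same-row pair gave 0.20 for miR-31. For miR-203, a miRNA of epithelial differentiation, the difference was -0.26 (SE 0.09, limma adjusted p = 0.0961), with slide values of -0.27, 0.02 and -0.38. Quantile normalization called both lower, at -0.67 for miR-31 and -0.52 for miR-203, each with an adjusted p of 0.00358. Total gene signals also called both lower, at -0.64 (adjusted p = 0.0304) and -0.57 (adjusted p = 0.0286), as did the values without scaling, at -1.03 and -0.97. Under normexp background correction the differences were on the other side of 0, at 0.18 for miR-31 and 0.19 for miR-203. The level of miR-425 was -4.41, -4.64, -4.24, -4.40 and -4.45 in controls and -4.21, -4.30, -4.39, -4.30 and -4.26 at the high dose. Its ranges overlapped, with 1 high dose liver above every control, and it was above background in 5 controls and 3 high dose livers. The difference was 0.18 (SE 0.05, limma adjusted p = 0.067), and under quantile normalization it was -0.21.

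Members of the other lists had smaller differences. For miR-10a, which lies in a Hox cluster, the difference was 0.13 (log2, SE 0.05, limma adjusted p = 0.103). For miR-33, a repressor of cholesterol export, it was 0.07 (SE 0.12, adjusted p = 0.851), and the slides gave -0.32, 0.47 and 0.07. The endothelial miR-126-3p had a mean of 1.32 in controls (SD 0.17, n = 5) and of 1.40 with the high dose (SD 0.07, n = 5), a difference of 0.08 (adjusted p = 0.528). For miR-29b the difference was -0.11 (adjusted p = 0.259), and for miR-30b it was -0.16 (adjusted p = 0.194). Both miR-18a and miR-376c were at the floor on all 10 arrays, so they have no order there, and miR-125a-5p was at the floor on 8 of 10.

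Hepatocyte miRNAs showed no call in the main fit. Of 9 tested members of that list 0 were called higher and 0 lower, beside 2.4% and 0% of all 208. Differences were negative for 5, and the median was -0.06. The level of miR-122, which regulates cholesterol and lipid genes of hepatocytes, was 6.82, 6.43, 6.52, 6.49 and 6.41 in controls. At the high dose it was 6.67, 6.35, 6.87, 6.98 and 6.56, and the ranges overlapped almost in full. The difference was 0.11 (log2, SE 0.12, limma adjusted p = 0.652), or 1.08-fold with an interval of 0.904 to 1.28. The slides disagreed in sign for miR-122, at -0.32, 0.50 and 0.09. Its limma call depended on the scaling. It was called higher in the value table, at 0.30 (adjusted p = 0.0292), and lower without scaling, at -0.60 (adjusted p = 0.0264). Lower values were seen for miR-101b (-0.29), miR-101a (-0.22) and miR-148a (-0.18), each with an adjusted p of 0.103. For these 3 all slides gave negative differences. Quantile normalization called miR-101a lower, at -0.21 (adjusted p = 0.0469), and total gene signals called miR-101b lower, at -0.35 (adjusted p = 0.0418). Without scaling all 3 were called lower, and with the percentile of all probes none was.

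The stress miRNA miR-21, which often rises in injured or regenerating liver, gave -0.01 (log2, SE 0.16, limma adjusted p = 1). Its controls were 5.60, 4.90, 5.09, 5.02 and 5.13 and its high dose values 5.12, 4.76, 5.26, 5.60 and 5.14. The slides pulled in opposite directions, at -0.66, 0.53 and 0.06. The interval of its fold change was 0.776 to 1.26. From the list of liver tumour miRNAs 2 of 9 were tested, with 0 called beside 2.4% of all 208, and miR-221 gave 0.02 (adjusted p = 1). Of the stress and inflammation list, miR-146a gave 0.15 (adjusted p = 0.528).

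Of the listed miRNAs linked to the aryl hydrocarbon receptor, the receptor that this compound binds, 1 was tested under its listed name. The list also names miR-212, which the array holds as miR-212-3p; that form was tested too, with a difference of -0.03 (adjusted p = 0.829). The level of miR-96, a member of the miR-183 cluster, was -4.34, -4.25, -4.35, -4.02 and -4.79 in controls. At the high dose it was -3.64, -3.26, -3.65, -3.92 and -4.25. High dose livers were above all controls in 4 of 5 cases, and the remaining one matched control replicate 10. The difference was 0.47 (log2, SE 0.26, limma adjusted p = 0.275) and was 0.90, 0.47 and 0.13 on slides 1, 2 and 3. Both miR-132 and miR-182 were detected on no array.

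Further lists held no call, beside 2.4% called of all 208. For the 3 members of the miR-29 family, repressors of collagen genes that share AGCACCA, all differences were negative with a median of -0.11, and miR-29a gave -0.17 (adjusted p = 0.0948). Of 9 tested members of the miR-17 clusters, growth-promoting miRNAs, the median was 0.09 and the highest was miR-92a at 0.24 (adjusted p = 0.0948). The lists of lipid and glucose metabolism, miR-10 and miR-99/100, miR-125 and miR-148 with its relatives had medians between -0.01 and 0.04. Of 43 listed miRNAs from the imprinted Dlk1-Dio3 locus, a list that does not hold every miRNA of the locus, 38 were detected on no array and 5 were tested, the highest being miR-668 at 0.71 (adjusted p = 0.101).

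**Figure D3:**
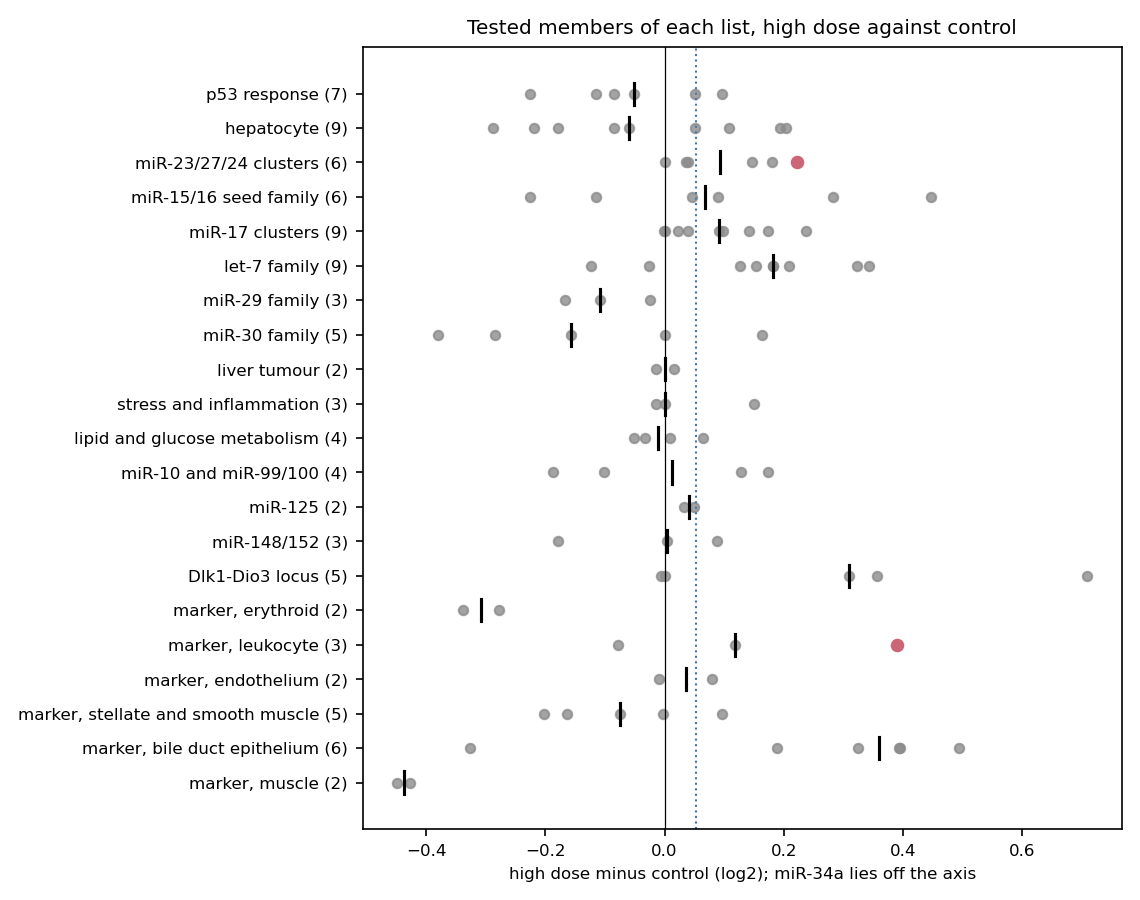
Fitted differences (log2, high dose minus control) of the tested members of each list with at least 2, whose number is in parentheses; red points passed the limma test, black bars are list medians and the dotted line is the median over all tested miRNAs. miR-34a, at 3.49, lies off the axis and is counted in the p53 median, and the red points are miR-23b and miR-223.

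Markers of other cell types singled out individual livers. High dose replicate 8 held the 5 bile duct markers of the miR-200 family at high levels, while the other bile duct marker, miR-31, was lowest there of all 10 arrays, at -3.92. The level of miR-203 was also lowest there, at -4.12. For miR-200a it stood at 0.02 while the other 4 high dose livers were between -4.32 and -3.67, and for miR-200b it stood at 0.00. Its levels of miR-200c, miR-141 and miR-429 were -1.76, -2.49 and -1.76, and all other 9 arrays were at the floor for these 3. The summed level of the 6 bile duct markers ran from -1.73 to -1.10 in controls and from -1.65 to 1.51 at the high dose. With that liver left out, the difference for miR-200a went from 0.19 (adjusted p = 1) to -0.38 (adjusted p = 0.802), and for miR-200b from 0.49 (adjusted p = 0.752) to -0.04 (adjusted p = 1). The same liver was highest for miR-143, a stromal and smooth muscle miRNA, at -1.92. Control replicate 22 held the muscle miRNA miR-1 at 1.19 and miR-133b at -0.68, where the other 4 controls were at the floor. Without high dose replicate 8, and likewise without control replicate 22, limma called 3 miRNAs, miR-34a, miR-139-5p and miR-1895, all higher. The 2 erythroid markers, miR-451 and miR-144, gave -0.28 and -0.34 (adjusted p = 0.528 and 0.591).

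A set of dim miRNAs had differences of 0.53 to 0.78 without passing. These 15 had control means between -4.58 and -3.75 and adjusted p-values of 0.0778 to 0.248. Among them were let-7b* (0.78), let-7f-1* (0.75), miR-92b (0.74), miR-877* (0.73) and miR-149 (0.64), named after their values were seen. Levels of let-7b* were -3.44, -4.20, -4.45, -3.64 and -4.49 in controls and -3.19, -3.41, -3.27, -2.62 and -3.41 at the high dose. The groups were just apart, and control replicates 1 and 19 were the highest controls. On slide 1 the 15 differences ran from -0.16 to 0.92 and 11 were negative. On slides 2 and 3 they ran from 0.00 to 1.35 and from 0.41 to 0.79. With labelling spike-in scaling 14 of the 15 were called, and without control replicate 1, 11 were. Without scaling, and with the percentile of all probes, quantile normalization or normexp, miR-34a alone was called higher, so none of the 15 was. The value table called let-7b* and miR-877* higher. The 75th percentile that each array was divided by was lower at the high dose, and its part in these differences was not tested.

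**Figure D4:**
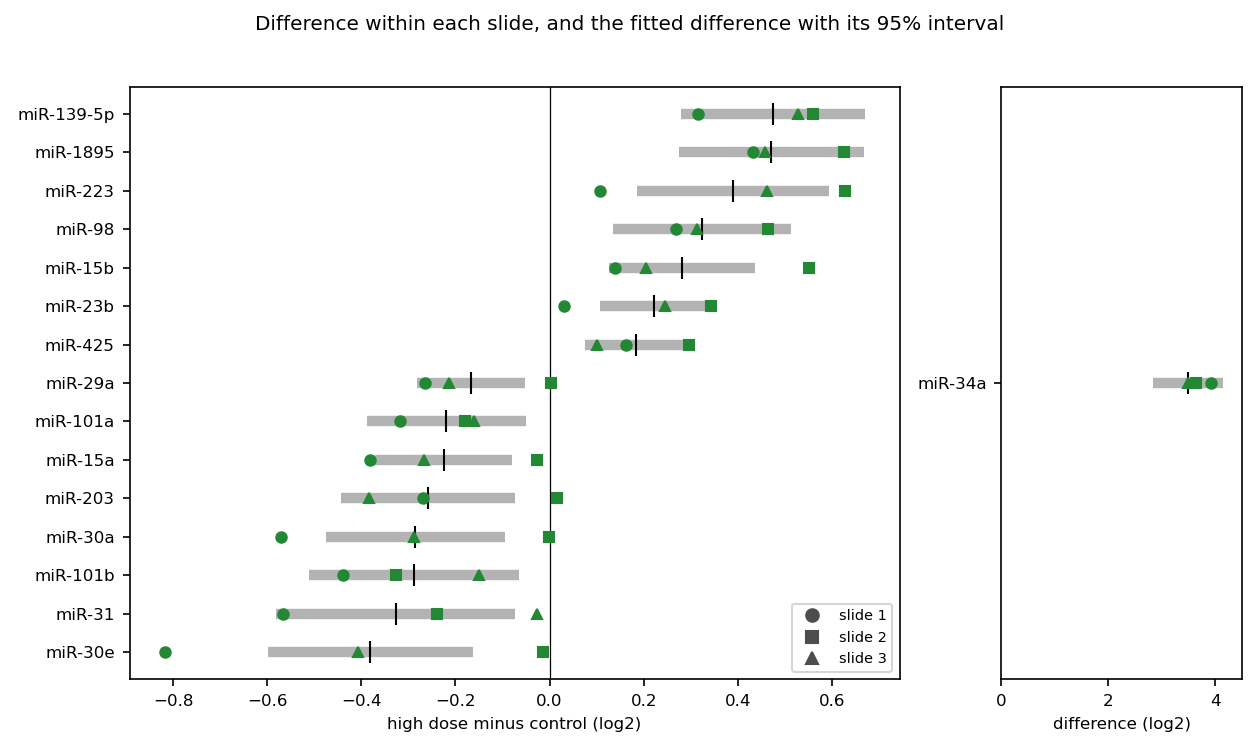
High dose minus control (log2) for the 8 miRNAs with the smallest p in each direction, with markers for the difference within each slide, a black tick for the fitted difference and a grey bar for its 95% interval; miR-34a has its own axis. Slide 2 lies to the right of slide 1 for each miRNA in the left panel, and miR-30a and miR-30e reach 0 or nearly 0 on slide 2.

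Slides differed in the size of these differences throughout. Over the 127 miRNAs never at the floor, the median difference was -0.11 on slide 1, 0.28 on slide 2 and 0.05 on slide 3. Slides 1 and 2 each set 2 high dose arrays against 1 control, and slide 3 set 1 against 3. The sign was positive on all 3 slides for 37 of 208 miRNAs and negative for 12. Of the 5 called miRNAs 5 were positive on all 3, and of the 8 with the smallest p among those lower, 6 were negative on all 3. These miRNAs were picked by the fit of the same arrays with slide as a block, which favours one sign across slides. Their agreement across slides is therefore not separate support.

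**Figure D5:**
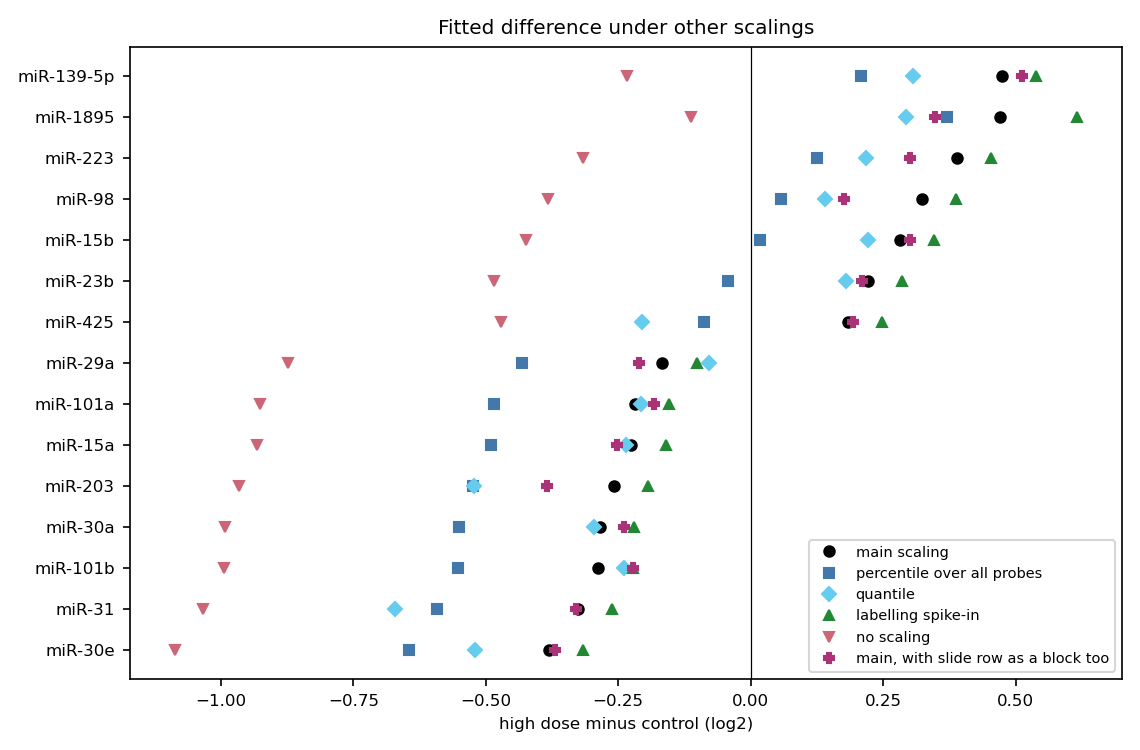
Fitted difference (log2) of 15 miRNAs under the main scaling, under 4 other scalings and with the slide row added as a block, with miR-34a left out. Without scaling all 15 lie below 0, and with the labelling spike-in each lies to the right of its main value.

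The choice of scaling moved the median of all tested miRNAs. The median difference was 0.05 with the main scaling, -0.08 with the percentile of all probes, 0.14 with the labelling spike-in and -0.47 without scaling. Relative to that median, miR-34a was higher by 3.43, 3.30, 3.41 and 3.25 in the same order. Without scaling the sign turned, at -0.48 for miR-23b, -0.32 for miR-223 and -0.23 for miR-139-5p.

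Detection moved with array signal. Of the 696 miRNAs, 145 were seen on each of the 10 arrays and 461 on none of them. More controls than high dose livers detected 75 miRNAs, and 4 were detected in more high dose livers. By a rule of at least 4 arrays in one group and at most 1 in the other, 13 of 696 (1.87%) differed, all with more controls. The widest gap was that of miR-1839-3p, with 5 controls and 0 high dose livers. It was followed by miR-24-1* and miR-667, with 5 and 1 each, and by miR-1187, miR-126-5p, miR-193*, miR-31*, miR-324-5p, miR-669f-3p and miR-872, with 4 and 0 each. After scaling the levels of these 10 were at or near the floor in both groups, so no fold is given. The labelling spike-in and the 75th percentile, both lower at the high dose, moved the same way, and their part in these gaps was not tested.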

How the data were processed

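Liver RNA of 19 mice was hybridized to 1-colour Agilent miRNA arrays on 3 slides. Per the file headers, Feature Extraction 10.7.3.1 subtracted background and wrote an intensity for every spot, unscaled between arrays. The value table of the series, as the authors deposited it, holds log2 values, and the sources used here do not give their method. It was an alternative, through 636 matched names.

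Spots marked as outliers were dropped, spots of a probe averaged and each array divided by its 75th percentile over 220 probes. Values under the floor of -4.79 (log2) were raised to it, and the brightest probe stood for a miRNA. Detection was the scanner software's call. Groups were compared with limma 3.58.1 (R 4.3.3) over all 19 arrays with slide as a fixed block, two-sided. The procedure was tested on simulated data. Single values were compared with exact permutation tests. For arrays like these, their number limits the precision. The normexp alternative used median spot signals.

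Named miRNAs were those that passed, the 8 smallest p in each direction, the first members of each list, miR-34a, miR-122, miR-21 and up to 10 with a detection gap. The group, lists and tests were chosen with earlier results of these data known.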

Additional observations from a re-analysis of the deposited data

Results flagged for a closer look

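Of 86 sets of 5 arrays checked for an array far from the others, 10 held one, and the rule takes about 5% as the rate by chance. That rate does not hold where arrays tie at the floor, as for miR-1 and miR-1895. The sets also share arrays, so the count does not show an excess. Control replicate 1 was highest for miR-122, at 6.82, with the other controls between 6.41 and 6.52, and for miR-192, at 3.40, with the others between 3.09 and 3.14. That array also detected the fewest miRNAs among controls, 181, and had the lowest hybridization spike-in signal, 14.25 (log2). High dose replicate 8 was highest for miR-200a (0.025), for miR-143 (-1.92) and for miR-1 (-2.67), the other 4 being at the floor for miR-1. Control replicate 22 stood apart for miR-1 at 1.19, with the other 4 at the floor. High dose replicate 15 was highest for miR-125a-5p at -4.53, with 3 of the others at the floor. Control replicate 10 stood at -4.78 for miR-1895, just above 4 controls at the floor.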

How the results depend on the processing

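No paired analysis was possible because the replicate numbers in the labels are unique to each animal and the groups share none. The count of called miRNAs, 5 with all 5 higher, became 1 with percentile scaling over all probes, with normexp and with slide and row blocks. It became 9 with quantile normalization (1 higher, 8 lower), 70 without scaling (1 and 69), 23 with labelling spike-in scaling, 14 from the value table (11 and 3) and 8 from total gene signals (2 and 6). It was 12 among miRNAs detected on all arrays (11 and 1), 2 with a floor 4 times higher or with control and high dose arrays only, and 19 without the slide block. It was 11 with slide as a random block, 2 with array signal as a covariate (1 and 1) and 3 with a trended robust prior. Leaving out 1 of 19 arrays gave 1 to 23 calls, 1 to 23 higher and 0 to 4 lower. The extremes were 1 without high dose replicate 23 and 23 without control replicate 1. Without control replicate 10 there were 3 higher and 4 lower, and without middle dose replicate 20 there were 7 and 1. It was 3 without high dose replicates 8, 15 or 16, control replicate 22, low dose replicates 3, 12, 18 or 24, or middle dose replicates 5 or 14, one at a time.

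Within slides the difference in miRNAs detected was -27.3 (exact permutation p = 0.0556) and in the 75th percentile -127 (p = 0.0556, exact permutation). With 1 array left out these ran from -35.7 to -27.1 and from -196 to -128, the labelling spike-in from -0.94 to -0.78, the hybridization spike-in from -0.39 to -0.12 and the miR-34a difference of means from 3.58 to 3.92.

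Signs turned as follows, and the cause was not tested. Under percentile scaling over all probes the sign turned for let-7a (-0.083), let-7b (-0.057), miR-10a (-0.14), miR-122 (-0.16), miR-125a-5p (-0.070), miR-126-3p (-0.19), miR-143 (-0.17) and miR-146a (-0.11). It also turned there for miR-192 (-0.21), miR-19a (-0.24), miR-200a (-0.077), miR-23a (-0.12), miR-23b (-0.043), miR-27a (-0.23), miR-33 (-0.20) and miR-425 (-0.088). Under no scaling the sign turned for let-7a (-0.52), let-7b (-0.50), miR-10a (-0.58), miR-122 (-0.60), miR-125a-5p (-0.38), miR-126-3p (-0.63), miR-139-5p (-0.23), miR-143 (-0.61), miR-146a (-0.56), miR-15b (-0.42) and miR-1895 (-0.11). It also turned there for miR-192 (-0.66), miR-19a (-0.68), miR-200a (-0.52), miR-223 (-0.32), miR-23a (-0.56), miR-23b (-0.48), miR-27a (-0.67), miR-33 (-0.64), miR-425 (-0.47), miR-96 (-0.24) and miR-98 (-0.38). Under array signal as a covariate it turned for let-7b (-0.047), miR-1 (2.45), miR-122 (-0.14), miR-125a-5p (-0.036), miR-192 (-0.14) and miR-33 (-0.14). Under normexp it turned for miR-122 (-0.0014), miR-192 (-0.038), miR-203 (0.19), miR-30b (0.037), miR-31 (0.18) and miR-376c (0.44). Under quantile normalization it turned for miR-125a-5p (-0.040), miR-143 (-0.28), miR-146a (-0.0020), miR-19a (-0.16), miR-200a (-0.20), miR-33 (-0.17) and miR-425 (-0.21). Under total gene signals it turned for miR-125a-5p (-0.11), miR-143 (-0.075), miR-192 (-0.0022), miR-19a (-0.037), miR-200a (-0.22), miR-27a (-0.019), miR-33 (-0.12) and miR-376c (0.29). Under slide and row blocks it turned for miR-125a-5p (-0.10), miR-19a (-0.053) and miR-200a (-0.10). Under the value table it turned for miR-19a (-0.10), miR-21 (0.090), miR-27a (-0.0055), miR-33 (-0.033), miR-376c (0.075) and miR-425 (-0.014). Under labelling spike-in scaling it turned for miR-21 (0.050) and miR-376c (0.085). Under no slide block it turned for miR-21 (0.028). Under slide as a random block it turned for miR-21 (0.0085). With 1 array left out the difference crossed 0 for miR-1 (-1.03 to 0.49), miR-125a-5p (-0.014 to 0.092), miR-126-3p (-0.018 to 0.13), miR-143 (-0.23 to 0.23), miR-192 (-0.0045 to 0.13), miR-19a (-0.043 to 0.072), miR-200a (-0.38 to 0.56), miR-21 (-0.13 to 0.13), miR-27a (-0.093 to 0.11) and miR-33 (-0.026 to 0.15). Of all alternatives for the results named in the text, 1197 kept direction and side of the threshold, 49 passed where the result had not, 67 no longer passed and 97 turned sign.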
